A study of Mus musculus with 8 samples.

Results

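Signals of 46 proteasome genes were examined in whole lungs of mice that had lost the stress-response transcription factor Atf4 and of mice that kept it. The genes were chosen by name: 48 of the 30176 genes with a transcript cluster of a single symbol matched the pattern of Psm followed by a subunit letter from a to g and a number, pseudogenes left out. Of these, Psmc3ip, a cofactor of meiotic recombination, and Psme3ip1, which encodes a protein that binds the activator Psme3, are not part of the proteasome. Their changes were -0.03 and 0.04 and they were set aside. Psmb5 and Psme2 have no cluster of a single symbol and are not described. Every gene had 1 such cluster, and 43 of the 46 clusters read above the median signal of all 65956 clusters on the array.

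Lungs came from 4 Atf4D/D mice (KO, with the floxed Atf4 alleles excised) and 4 Atf4wt/wt mice (WT). All 8 mice carried Rosa26::CreERT2, a tamoxifen-activated Cre recombinase driven by a promoter active in most tissues, and all received tamoxifen, so that Cre and drug were shared by both groups and the loss of Atf4 was not limited to any cell type of the lung. Both groups were 13 weeks old, 4 weeks after tamoxifen, on a C57BL/6 background, with 3 males and 1 female each. The females were KO replicate 2 and WT replicate 3. Values are log2 signals of 1 array per animal. A change is the KO mean minus the WT mean on that scale, and the study's own limits were used to call a gene, namely a fold over 1.5 and an adjusted p no higher than 0.05.

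The proteasome degrades proteins tagged with ubiquitin. Its barrel, the 20S core, has outer rings of alpha subunits and inner rings of beta subunits that hold the proteolytic sites. The 19S cap recognises, unfolds and feeds in substrates through a ring of ATPases and a set of non-ATPase subunits, and other activators can take its place. Under interferon, and in many immune cells at rest, Psmb8, Psmb9 and Psmb10 replace the catalytic subunits Psmb5, Psmb6 and Psmb7 to form the immunoproteasome, which shapes the peptides shown on MHC class I. ATF4 is translated when the integrated stress response slows general protein synthesis, and the proteasome is one route by which cytosolic proteins are cleared.

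Median signals of the arrays lay between 5.21 and 5.29, and any pair of arrays correlated at 0.988 to 0.996 across clusters. The targeted gene read 6.34, 6.26, 6.48 and 6.38 in KO replicates 1 to 4, against 6.99, 8.03, 8.0 and 7.58 in WT replicates 1 to 4. Atf4 fell by 1.29 (SE 0.21, 2.44-fold, adjusted p = 0.0485, limma), with all KO lungs below all WT lungs. This call was lost in 11 of 18 alternatives, among them 7 of the 8 fits without a single lung (adjusted p 0.0965 to 0.159), while without WT replicate 1 the change was -1.51 (adjusted p = 0.00902). The array labelled WT replicate 1 read nearest to the KO lungs, so counts are also given without it. Over all clusters 182 were called (0.276%), 151 higher and 31 lower in KO lungs. The count was 266 without WT replicate 1, 82 without WT replicate 2, 8 without WT replicate 3, and 8, 65 and 89 without KO replicates 1, 2 and 3.

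None of the 46 proteasome genes was called by limma, while 38 of them read lower and 8 higher in KO lungs. Their median change was -0.09 (quartiles -0.16 and -0.03), set beside -0.03 for all clusters and -0.03 for the clusters above the median signal, the range in which most proteasome genes lie. The share of genes that read lower was 82.6%, against 58.8% of those brighter clusters. All changes lay between -0.42 for Psmc5, an ATPase of the cap, and 0.54 for Psme3, a nuclear activator of the core. The plot of changes by role shows most points a little left of 0, with Psme3 alone far to the right.

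**Figure D1:**
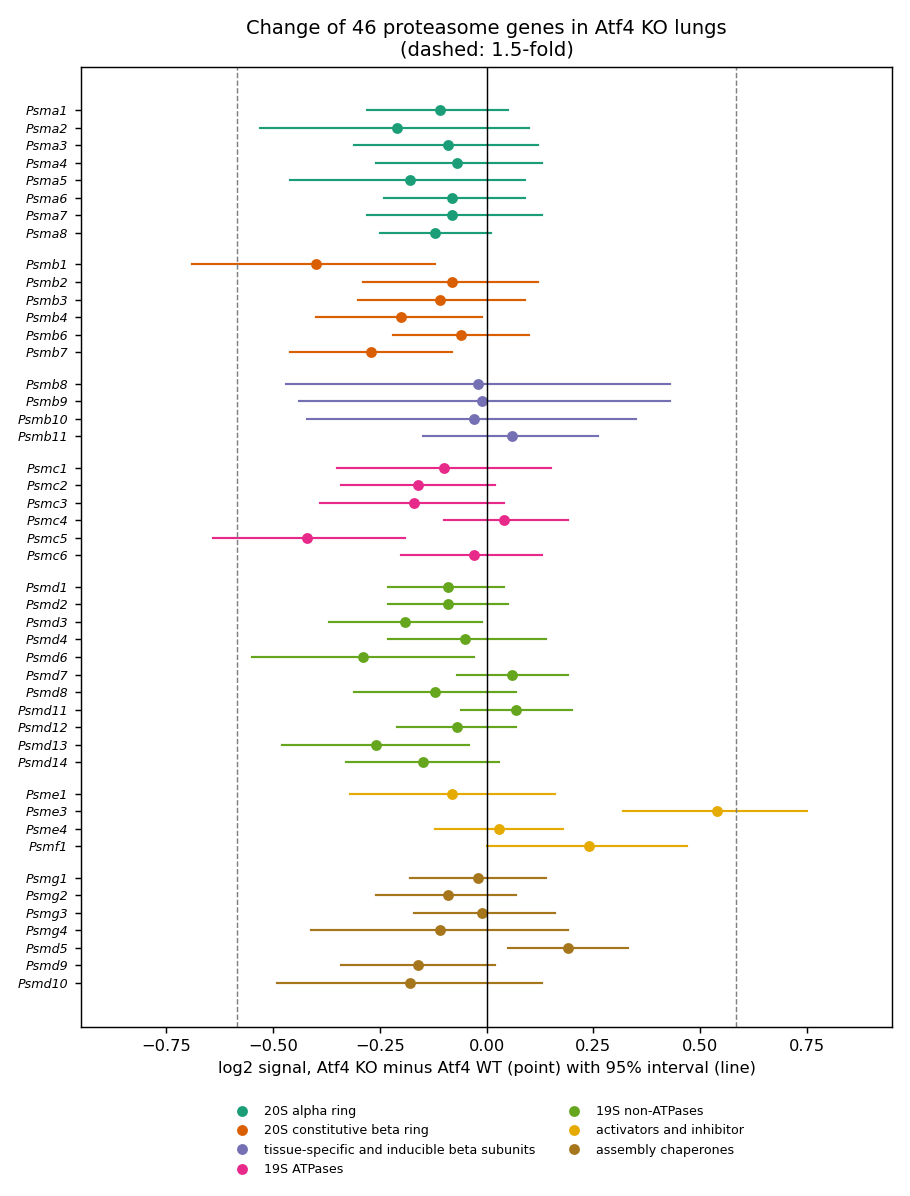
Change of each proteasome gene (log2 signal, Atf4 KO minus Atf4 WT, x axis) with its 95% interval from limma, n = 4 arrays per group, grouped by role down the page. Points lie between -0.42 (Psmc5) and 0.54 (Psme3), and the dashed lines mark the 1.5-fold threshold, which no point passes.

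At an unadjusted p under 0.05, 7 genes read lower in KO lungs (Psmc5, Psmb1, Psmb7, Psmd13, Psmd6, Psmd3 and Psmb4; 15.2% of 46) and 3 read higher (Psme3, Psmd5 and Psmf1; 6.52%). The methods' t-test, a general choice of the study that its array section does not mention, gave 6 lower and 2 higher at the same limit, and called 0. Among all clusters, 7.63% read lower and 4.4% higher at this limit, and among those above the median signal 10.7% read lower and 7.17% higher. The adjusted p-values of the 46 genes ran from 0.067 to 0.993. In 3 genes, Psmb7, Psmc5 and Psma8, every KO array lay below every WT array (6.52%), as did 4.41% of all clusters and 5.75% of the brighter ones. In Psme3 and Psmd5 every KO array lay above every WT array (4.35%), as did 2.83% of all clusters and 4.45% of the brighter ones. The members' shares on the higher side and the shares without overlap thus lay near those of the brighter clusters.

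The number of genes that read lower depended on single lungs. It was 12 without WT replicate 1 (26.1%, against 9.95% of all clusters and 14.5% of the brighter ones). It was 4 without WT replicate 4, and 3 without WT replicate 2, without WT replicate 3 or without KO replicate 4. Shares over all clusters were not computed for these other omissions, so whether the counts exceed them cannot be told. The genes added without WT replicate 1 were Psma2, Psmb3, Psmc2, Psmc3 and Psmd14. That array was the lowest WT lung in 34 of the 46 genes, so leaving it out raised the WT mean in those genes. The median change lay between -0.14 and -0.06 when each lung was left out, and none of the 46 genes was called in any of these fits.

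The alpha subunits, which form the gate of the barrel, all read lower in KO lungs, with a median change of -0.10 and adjusted p-values between 0.45 and 0.809. None of the 8 reached an unadjusted p under 0.05. Psma8 replaces another alpha subunit in germ cells of the testis, and its signals in the lung did not exceed the array medians. It gave 4.97, 5.0, 5.06 and 5.05 in KO lungs, against 5.09, 5.18, 5.09 and 5.21 in WT lungs, a change of -0.12 (SE 0.06, adjusted p = 0.45). These groups did not overlap, though the gap between them was small. Psma2, in the outer ring of every proteasome, read 9.98, 9.90, 9.97 and 9.52 in KO lungs, against 9.73, 10.25, 10.04 and 10.20 in WT lungs (change -0.21, SE 0.14, adjusted p = 0.599). KO replicate 4 lay far below the other KO lungs, and WT replicate 1 below the other WT lungs. Psma1 read 9.49, 9.34, 9.54 and 9.45 in KO lungs, against 9.45, 9.55, 9.56 and 9.72 in WT lungs (change -0.11, adjusted p = 0.6). The remaining 5 alpha subunits had changes between -0.18 (Psma5) and -0.07 (Psma4).

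The 6 measured constitutive beta subunits also all read lower in KO lungs, with a median change of -0.15. At an unadjusted p under 0.05, 3 of them did so, as did 7.63% of all clusters and 10.7% of the brighter ones. Psmb1, a structural subunit of the inner ring, read 11.40, 11.14, 11.44 and 11.14 in KO lungs, against 11.34, 11.78, 11.74 and 11.87 in WT lungs. The change was -0.40 (SE 0.13, 1.32-fold, adjusted p = 0.256). The groups overlapped only through WT replicate 1, which was the lowest WT lung. Without that array the change was -0.52 (adjusted p = 0.0586). Psmb7, which carries the trypsin-like site, read 10.92, 10.79, 10.92 and 10.71 in KO lungs, against 10.93, 11.25, 11.09 and 11.15 in WT lungs. The change was -0.27 (SE 0.08, 1.21-fold, adjusted p = 0.256), and KO and WT lungs were parted only by the small step between KO replicates 1 and 3 and WT replicate 1. Psmb4, a structural subunit, read 7.32, 7.39, 7.35 and 7.19 in KO lungs, against 7.34, 7.70, 7.46 and 7.56 in WT lungs (change -0.20, SE 0.09, adjusted p = 0.391). Psmb6, which carries the caspase-like site, read 9.52, 9.44, 9.56 and 9.36 in KO lungs, against 9.43, 9.65, 9.51 and 9.52 in WT lungs. Its change of -0.06 (SE 0.07, adjusted p = 0.801) was less than the spread between lungs. Psmb2 and Psmb3 had changes of -0.08 and -0.11.

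Among the 6 ATPases that form the motor of the 19S cap, 5 read lower in KO lungs, with a median change of -0.13. Psmc5 had the lowest change of the 46 genes. It read 10.32, 10.22, 10.31 and 10.01 in KO lungs, against 10.41, 10.77, 10.66 and 10.70 in WT lungs, a change of -0.42 (SE 0.10, 1.34-fold, 95% interval -0.64 to -0.19, adjusted p = 0.156). All KO lungs lay below all WT lungs, and the change was between -0.49 and -0.35 when each lung was left out. Psmc2 read 9.81, 9.74, 9.83 and 9.62 in KO lungs, against 9.74, 10.03, 9.95 and 9.91 in WT lungs (change -0.16, SE 0.08, adjusted p = 0.479). Psmc3 read 8.76, 8.76, 8.74 and 8.52 in KO lungs, against 8.64, 9.0, 8.85 and 8.98 in WT lungs (change -0.17, SE 0.10, adjusted p = 0.526). In both, WT replicate 1 lay within the range of the KO lungs. Psmc4 was the ATPase that read higher, with a change of 0.04, and Psmc1 and Psmc6 had changes of -0.10 and -0.03.

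Of the 11 non-ATPase subunits of the cap, 9 read lower in KO lungs (median -0.09). At an unadjusted p under 0.05, 3 of them did so, as did 7.63% of all clusters and 10.7% of the brighter ones. Psmd13 and Psmd6 belong to the lid, the part of the cap that removes ubiquitin from substrates. Psmd13 read 7.88, 7.90, 7.82 and 7.63 in KO lungs, against 7.82, 8.13, 8.10 and 8.22 in WT lungs (change -0.26, SE 0.10, adjusted p = 0.346). Psmd6 read 9.13, 9.13, 9.15 and 8.90 in KO lungs, against 9.08, 9.61, 9.44 and 9.36 in WT lungs (change -0.29, SE 0.11, adjusted p = 0.355). Psmd3, also of the lid, read 8.01, 7.72, 7.89 and 7.73 in KO lungs, against 7.97, 8.08, 8.10 and 7.97 in WT lungs (change -0.19, SE 0.08, adjusted p = 0.381). In each of the 3 genes the groups overlapped by a single WT or KO lung at their edge. Psmd14, the enzyme that cuts ubiquitin off, and the ubiquitin receptor Psmd4 had changes of -0.15 and -0.05. Psmd7 and Psmd11, both of the lid, read higher by 0.06 and 0.07.

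Of the 4 measured activators and inhibitor of the core, 3 read higher and 1 lower in KO lungs and 0 were called. Their median change was 0.13, set by the middle members Psme4 and Psmf1, and the group was not tested against the other roles. Psme3 encodes the PA28 gamma ring, a mostly nuclear cap that opens the core to some proteins without ubiquitin. It read 12.60, 12.44, 12.78 and 12.37 in KO lungs, against 12.00, 12.13, 11.96 and 11.95 in WT lungs. All KO lungs lay above all WT lungs, and the change was 0.54 (SE 0.10, 1.45-fold, 95% interval 0.32 to 0.75, adjusted p = 0.067), which missed both thresholds. Over 18 alternatives the change was between 0.46 and 0.60 with adjusted p-values of 0.0457 to 0.298. The lowest came from a fit with 1 cluster per gene, in which the fold was still under the threshold. Psmf1, known in vitro as an inhibitor of the core, read 8.36, 8.20, 8.53 and 8.30 in KO lungs, against 8.29, 7.90, 8.22 and 8.03 in WT lungs (change 0.24, SE 0.10, adjusted p = 0.406). WT replicates 1 and 3 lay inside the KO range. Psme4, an activator found on the core in nuclei, read 10.68, 10.65, 10.72 and 10.58 in KO lungs, against 10.74, 10.52, 10.66 and 10.59 in WT lungs, and its change of 0.03 (SE 0.07, adjusted p = 0.891) was less than the spread between lungs.

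**Figure D2:**
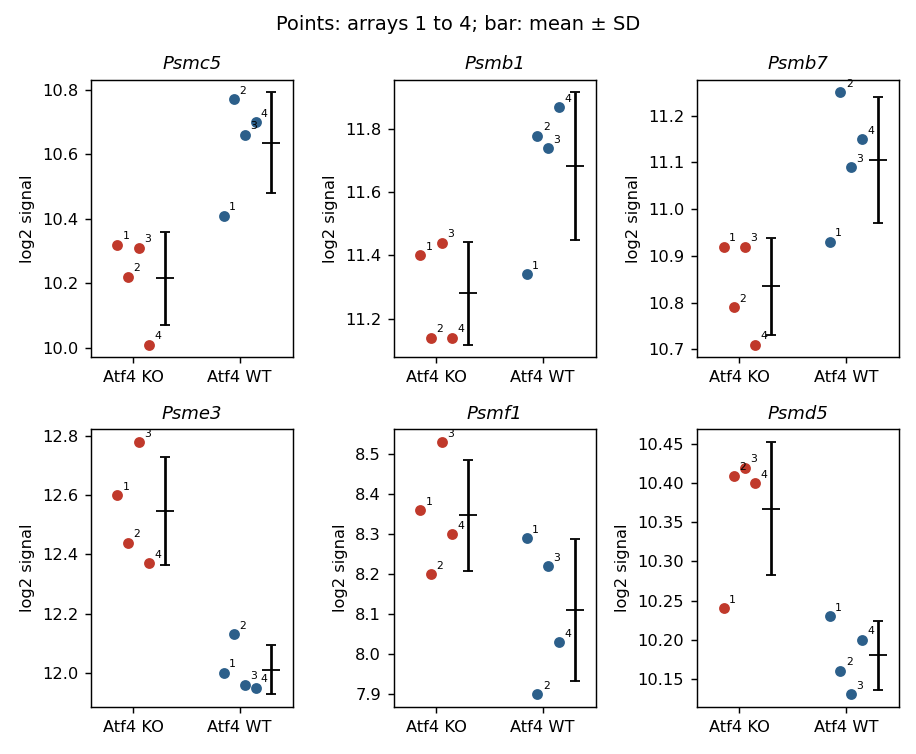
Log2 signal of Psmc5, Psmb1, Psmb7, Psme3, Psmf1 and Psmd5 in each lung (points, numbered by replicate) with the mean and SD of each group (bars), Atf4 KO left and Atf4 WT right, each panel on its own axis that does not start at 0. Upper row: KO lungs read lower, with WT replicate 1 the lowest WT lung. Lower row: KO lungs read higher, with overlap in Psmf1.

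Dedicated chaperones assemble the core and the base of the cap, and 6 of the 7 with Psm names read lower in KO lungs (median -0.09). The exception was Psmd5, which holds a pair of cap ATPases until the base is built and keeps the cap off the core while bound. Psmd5 read 10.24, 10.41, 10.42 and 10.40 in KO lungs, against 10.23, 10.16, 10.13 and 10.20 in WT lungs. The change was 0.19 (SE 0.06, 1.14-fold, adjusted p = 0.282), and KO replicate 1 was level with the highest WT lung to within 0.01. Psmd9 and Psmd10, the other chaperones of the base among these 7, had changes of the opposite sign. Psmd9 read 6.36, 6.12, 6.31 and 6.07 in KO lungs, against 6.36, 6.40, 6.45 and 6.28 in WT lungs (change -0.16, SE 0.08, adjusted p = 0.487). Psmd10 read 8.54, 8.65, 8.60 and 8.25 in KO lungs, against 8.49, 8.64, 8.56 and 9.06 in WT lungs (change -0.18, SE 0.14, adjusted p = 0.663), a difference that rests on the lowest KO and the highest WT lung. The 4 chaperones of the core among these 7, Psmg1 to Psmg4, had changes between -0.11 and -0.01.

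The immunoproteasome subunits varied more between KO lungs than any other of the 46 genes. Their SDs there ran from 0.35 (Psmb10) to 0.42 (Psmb8), against 0.26 for Psmg4, the next in order. Between WT lungs they did not stand out, with SDs from 0.19 (Psmb10) to 0.24 (Psmb9), against 0.26 for Psmd10. Their changes were at most 0.03 in size. Psmb8 read 7.40, 6.97, 7.84 and 6.97 in KO lungs, against 7.12, 7.22, 7.62 and 7.30 in WT lungs. Its change was -0.02 (SE 0.20, 95% interval -0.47 to 0.43, adjusted p = 0.982), so these lungs do not exclude a change inside those limits. Psmb9 read 7.0, 6.46, 7.33 and 6.66 in KO lungs, against 6.81, 6.59, 7.18 and 6.88 in WT lungs (change -0.01, SE 0.19, 95% interval -0.44 to 0.43, adjusted p = 0.993). Psmb10 read 8.17, 7.67, 8.47 and 7.85 in KO lungs, against 7.80, 8.20, 8.20 and 8.09 in WT lungs (change -0.03, SE 0.17, 95% interval -0.42 to 0.35, adjusted p = 0.965). In each gene KO replicate 3 was the highest of all 8 lungs and KO replicate 2 or 4 the lowest KO lung. The changes of all 3 reached or passed 0 under cyclic loess, in males only and without single lungs, so no direction is given for them. The inducible activator Psme1 read 9.08, 9.08, 9.41 and 8.95 in KO lungs, against 9.04, 9.30, 9.27 and 9.23 in WT lungs (change -0.08, SE 0.10, adjusted p = 0.819), again with KO replicate 3 highest. Psmb11, the subunit of the thymic cortex, read 3.41, 3.66, 3.24 and 3.47 in KO lungs, against 3.46, 3.40, 3.41 and 3.29 in WT lungs, below the median of every array (change 0.06, adjusted p = 0.852).

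In terms of exchange of subunits, the distance of Psmb10 from Psmb7, the subunit it replaces, differed between KO and WT lungs by 0.24, mostly through the lower Psmb7, and that of Psmb9 from Psmb6 by 0.05. These are descriptions with no test. Psmb9, Tap1, Psmb8 and Tap2 follow one another among the protein-coding genes of chromosome 17, inside the class II part of the MHC, while Psmb10 lies on chromosome 8 between Ctrl and Lcat.

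Tap1 and Tap2 encode the pump that carries peptides from the proteasome into the endoplasmic reticulum. Tap1 read 10.52, 9.62, 11.16 and 9.80 in KO lungs, against 9.95, 9.43, 10.51 and 9.85 in WT lungs (change 0.34, SE 0.34, adjusted p = 0.756). KO replicate 3 was the highest KO lung in 10 of the 11 measured genes of MHC class I processing and KO replicate 2 the lowest in 6. The highest KO lung was thus the same as for the immunoproteasome subunits. It was also the highest KO lung in 22 of all 46 proteasome genes (47.8%), those subunits included. Its median difference from the WT mean was 0.46 for Psmb8, Psmb9 and Psmb10 and 0.33 for the 11 class I genes, against -0.05 over the 46 genes. WT replicate 3 was the highest WT lung in 7 of the 11 class I genes and in 8 of the 46 proteasome genes. Of those 11 class I genes 0 were called (0.276% of all clusters). At an unadjusted p under 0.05, 0 read higher and 1 lower (4.4% and 7.63% of all clusters). That gene was Pdia3, the thiol oxidoreductase of the peptide-loading complex, which read 14.29, 14.21, 14.50 and 14.40 in KO lungs, against 14.41, 14.75, 14.52 and 14.70 in WT lungs (change -0.24, SE 0.10, adjusted p = 0.357). Calr, a chaperone of that complex, read 13.03, 13.08, 13.44 and 13.43 in KO lungs, against 13.29, 13.60, 13.46 and 13.32 in WT lungs (change -0.18, adjusted p = 0.604). Erap1, which trims peptides, read 10.72, 10.75, 11.09 and 10.86 in KO lungs, against 10.82, 10.92, 11.06 and 11.17 in WT lungs (change -0.14, adjusted p = 0.653). The groups overlapped in all 3 genes.

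**Figure D3:**
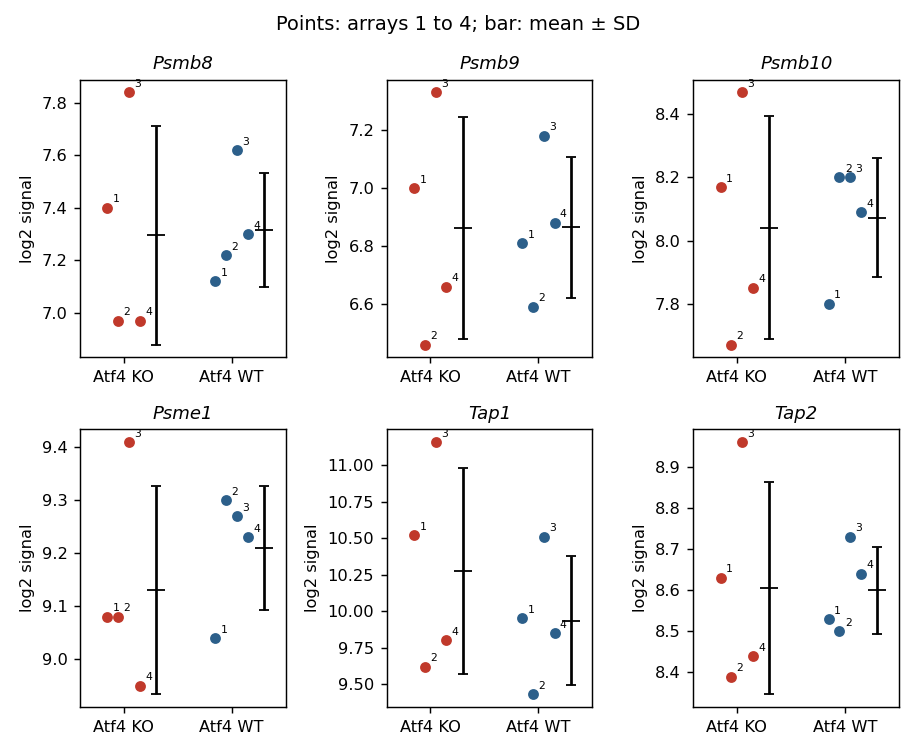
Log2 signal of the immunoproteasome subunits Psmb8, Psmb9 and Psmb10, the activator subunit Psme1 and the peptide pump genes Tap1 and Tap2 in each lung (points, numbered by replicate) with the mean and SD of each group (bars), Atf4 KO left and Atf4 WT right, each panel on its own axis that does not start at 0. The group means are close in Psmb8, Psmb9 and Psmb10, and KO replicate 3 is the highest lung in every panel.

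Over all 46 genes, the immunoproteasome subunits included, certain lungs were often the highest or lowest of their group. KO replicate 3 was the highest KO lung in 22 (47.8%), against 25.3% of the clusters above the median signal. KO replicate 4 was the lowest KO lung in 30 of the 46 genes (65.2%), against 25.6% of the clusters above the median signal. WT replicate 1 was the lowest WT lung in 34 (73.9%), against 32.3% of those clusters. Median differences from the WT mean over the 46 genes were -0.02, -0.13, -0.05 and -0.20 in KO replicates 1 to 4, against -0.16, 0.08, 0.01 and 0.02 in WT replicates 1 to 4. By this summary WT replicate 1 lay among the KO lungs and KO replicate 1 near the WT lungs, so the groups overlapped. Members of 1 complex measured on the same arrays are not independent of each other.

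**Figure D4:**
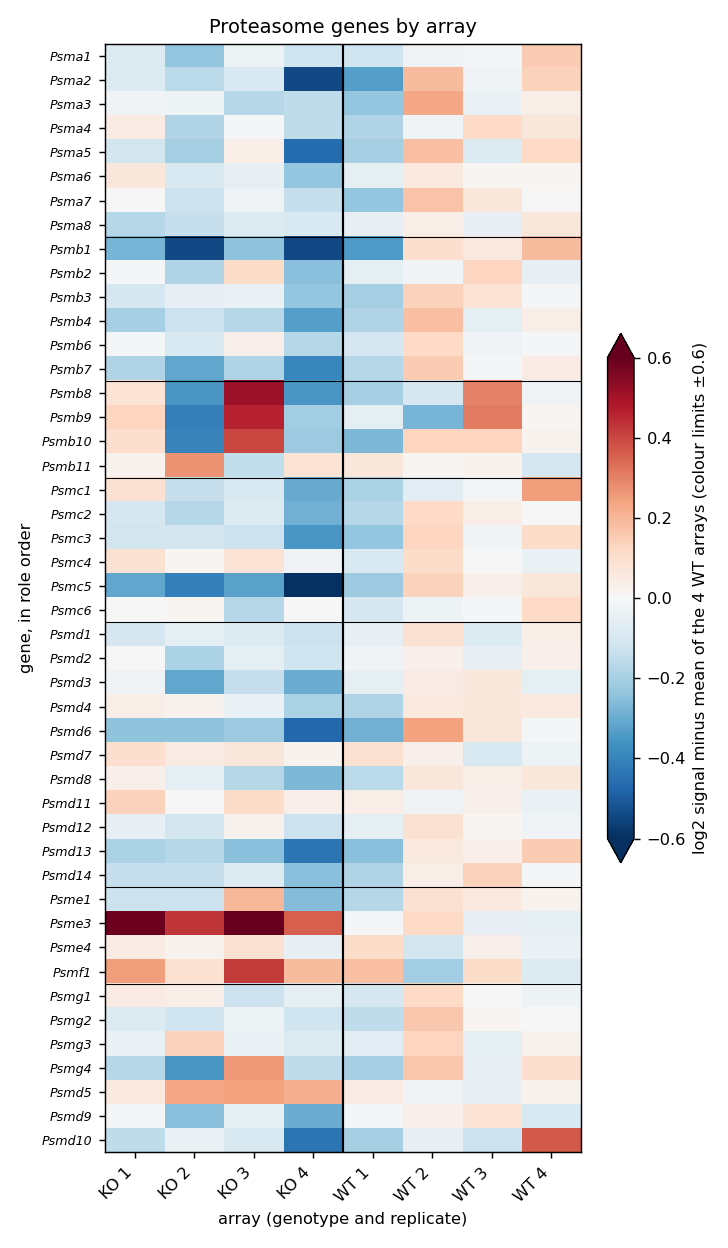
Log2 signal of the 46 genes (rows, in order of role) in each lung (columns, Atf4 KO left and Atf4 WT right) minus the mean of the 4 WT lungs, with colours limited to 0.6 in either direction. KO replicate 4 and WT replicate 1 are the bluest columns over the core and cap rows, Psme3 is red in all KO lungs, and Psmb8, Psmb9 and Psmb10 are red in KO replicate 3.

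Partners of the proteasome outside the Psm names and the transcription factors that act on its genes were read from the same fit. Of 10 measured partners, 0 were called (0.276% of all clusters). At an unadjusted p under 0.05, 2 read higher and 0 lower (4.4% and 7.63% of all clusters, 7.17% and 10.7% of the brighter ones). Zfand2a, an arsenite-inducible protein that binds the cap, read 12.43, 12.31, 12.10 and 12.35 in KO lungs, against 12.11, 11.42, 11.62 and 11.57 in WT lungs. The change was 0.62 (SE 0.14, 1.53-fold, adjusted p = 0.148), with WT replicate 1 level with the lowest KO lung to within 0.01. Without that lung the change was 0.76 (adjusted p = 0.0276), past both thresholds, and this was so in none of the other 17 alternatives. Its relative Zfand5, which also binds the proteasome, read 9.99, 10.15, 9.94 and 10 in KO lungs, against 9.80, 9.81, 9.89 and 9.96 in WT lungs (change 0.15, SE 0.07, adjusted p = 0.408). Sem1, a small subunit of the lid, read 7.90, 8.17, 8.01 and 8.09 in KO lungs, against 7.99, 8.59, 8.20 and 8.60 in WT lungs (change -0.30, SE 0.14, adjusted p = 0.436), the same sign as most of the cap.

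Vcp, the ATPase that pulls ubiquitin-tagged proteins from membranes and complexes before they reach the proteasome, and its cofactor Ufd1 had changes of opposite sign. Vcp read 12.31, 12.21, 12.36 and 12.29 in KO lungs, against 12.38, 12.46, 12.45 and 12.54 in WT lungs (change -0.16, SE 0.06, adjusted p = 0.338). Ufd1 read 9.63, 9.61, 9.81 and 9.53 in KO lungs, against 9.49, 9.22, 9.53 and 9.32 in WT lungs (change 0.26, SE 0.09, adjusted p = 0.308). Neither passed the test. Nploc4, the other cofactor, read 11.92, 11.72, 11.83 and 11.78 in KO lungs, against 11.81, 11.69, 11.78 and 11.68 in WT lungs (change 0.07, adjusted p = 0.746). They came from a list of 13 genes for ubiquitin and its shuttle receptors, of which 7 were measured, all of them receptors, Vcp or its cofactors and none a ubiquitin gene. Of those 7, 0 were called (0.276% of all clusters). Ufd1 read higher and Vcp lower at an unadjusted p under 0.05, as did 4.4% and 7.63% of all clusters.

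Of 9 genes for transcription factors of the proteasome and their processing, 0 were called (0.276% of all clusters). There were 3 higher and 1 lower at an unadjusted p under 0.05 (4.4% and 7.63% of all clusters, 7.17% and 10.7% of the brighter ones). Nfya, the subunit of NF-Y that contacts the CCAAT box, read 9.83, 9.80, 9.76 and 10.15 in KO lungs, against 9.6, 9.47, 9.24 and 9.28 in WT lungs. The groups did not overlap (change 0.49, SE 0.11, 1.40-fold, adjusted p = 0.143). Stat3, a signalling factor downstream of interleukin 6, read 11.56, 11.48, 11.40 and 11.41 in KO lungs, against 11.17, 11.22, 11.11 and 10.84 in WT lungs, also without overlap (change 0.38, SE 0.09, adjusted p = 0.156). Nfe2l1 encodes the factor that raises proteasome genes when proteolysis falls short. It read 11.38, 11.33, 11.40 and 11.29 in KO lungs, against 11.68, 11.54, 11.37 and 11.55 in WT lungs (change -0.18, SE 0.07, adjusted p = 0.365), with WT replicate 3 inside the KO range. Its relative Nfe2l2, the remaining gene that read higher, had a change of 0.16 without overlap (SE 0.07, adjusted p = 0.407, limma).

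Promoters are shown for the genes at both ends of the range of changes, Psme3 and Psmc5, and for the immunoproteasome neighbours Psmb9 and Psmb8. Each line gives the 250 bases before the RefSeq start on GRCm38.p6, 5′ to 3′ on the strand of the gene. Capitals mark a CCAAT box, here read as its reverse complement, in Psme3 and Psmb9, and a gamma-activated site in Psmb8. Psmc5 holds none of the motifs searched.
Psme3 (chr11:101315963-101316212, + strand): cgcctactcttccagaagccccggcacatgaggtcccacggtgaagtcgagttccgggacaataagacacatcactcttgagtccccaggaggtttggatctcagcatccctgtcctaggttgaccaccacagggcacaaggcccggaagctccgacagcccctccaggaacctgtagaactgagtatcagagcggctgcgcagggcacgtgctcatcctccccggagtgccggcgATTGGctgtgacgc
Psmc5 (chr11:106255935-106256184, + strand): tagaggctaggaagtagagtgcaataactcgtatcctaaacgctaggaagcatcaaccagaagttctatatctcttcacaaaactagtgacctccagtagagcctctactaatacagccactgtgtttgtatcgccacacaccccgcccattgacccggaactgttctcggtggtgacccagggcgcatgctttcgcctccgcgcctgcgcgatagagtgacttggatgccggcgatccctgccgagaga
Psmb9 (chr17:34187331-34187580, - strand): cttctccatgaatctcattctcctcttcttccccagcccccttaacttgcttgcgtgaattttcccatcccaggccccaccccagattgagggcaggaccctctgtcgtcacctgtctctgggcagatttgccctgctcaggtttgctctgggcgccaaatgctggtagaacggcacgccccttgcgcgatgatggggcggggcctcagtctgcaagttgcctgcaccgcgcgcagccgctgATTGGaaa
Psmb8 (chr17:34197945-34198194, + strand): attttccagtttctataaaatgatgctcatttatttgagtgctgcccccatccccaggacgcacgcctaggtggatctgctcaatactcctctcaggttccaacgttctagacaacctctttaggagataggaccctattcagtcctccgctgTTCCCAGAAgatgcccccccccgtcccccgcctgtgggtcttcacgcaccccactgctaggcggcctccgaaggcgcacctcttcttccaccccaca

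Counted from the RefSeq start, the capitals begin at -14 in Psme3, -8 in Psmb9 and -97 in Psmb8. Promoter windows of 300 bases, from 250 before to 50 after the start, were found for 38 of the 46 genes and searched on both strands for 6 motifs. The CCAAT box (CCAAT) was in 14 of the 38 (36.8%), against 41.1% of all 27025 genes with a window. The antioxidant response element (TGACNNNGC), which factors of the Nfe2l family bind, was in 5 (13.2%), against 14.0% of all genes. The C/EBP-ATF response element (TGATGNAA), the composite site at which ATF4 is known to bind with C/EBP factors, was in 1, Psmd13 (2.6%, against 4.51% of all genes). The cyclic AMP response element (TGACGTCA), which shares its first 4 letters with the antioxidant element, was in 0 of 38, against 2.03% of all genes. The interferon-stimulated response element (GAAA, any 2 bases, GAAA) was in 5 (Psmb3, Psmd4, Psmd9, Psme1 and Psmg4; 13.2%), against 3.99% of all genes, and the gamma-activated site (TTCNNNGAA) in 3 (Psmb8, Psmd2 and Psmg1; 7.9%), against 9.55% of all genes. These are matches of letters within short windows and no test was made of them.

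Markers of several cell types moved with genotype in these lungs. Summed signals (log2 of the summed linear signal) were 13.51 to 17.4 in KO lungs and 11.75 to 13.11 in WT lungs for 9 neutrophil markers, of which 9 read higher and 0 were called. They were 15.82 to 16.75 in KO lungs and 12.58 to 15.7 in WT lungs for 7 platelet markers (2 called), and 12.25 to 14.3 in KO lungs and 10.49 to 11.14 in WT lungs for 3 red cell markers (2 called). For 6 markers of all leukocytes, cells in which the immunoproteasome is abundant, they were 13.4 to 13.96 in KO lungs and 12.85 to 13.33 in WT lungs, with 6 of 6 higher and 0 called. Fibroblast markers ran the other way, at 13.38 to 14.34 in KO lungs and 14.73 to 15.15 in WT lungs, with 6 of 7 lower and 3 called. The 7 markers of type 2 alveolar cells, which mark the tissue as lung, gave 19.94 to 20.17 in KO lungs and 20.09 to 20.21 in WT lungs, with 5 of 7 lower and 0 called. The 7 dendritic cell markers gave 9.22 to 10.19 in KO lungs and 10.1 to 11.27 in WT lungs, with 7 of 7 lower, and the 7 endothelial markers 18.15 to 18.29 in KO lungs and 17.8 to 18.17 in WT lungs, with 6 of 7 higher, 0 called in either list. Of 6 plasma cell markers 5 read lower, 2 of them at an unadjusted p under 0.05 (7.63% of all clusters), and 0 were called. Jchain, the chain that joins antibody units and named here after its values were seen, read 8.61, 8.73, 8.66 and 8.12 in KO lungs, against 12.19, 9.46, 12.51 and 10.48 in WT lungs (change -2.63, SE 0.60, adjusted p = 0.142). The summed plasma cell level, of which Xbp1 made a large part, was 12.47 to 12.82 in KO lungs and 12.49 to 13.61 in WT lungs. The other 8 lists overlapped between genotypes in summed level with 0 genes called, among them the 5 T cell markers, which gave 9.6 to 10.84 in KO lungs and 9.4 to 10.61 in WT lungs. RMA gives every cluster a value above 0 and detection calls were not used, so these values do not show which dim markers are absent. Their part in the values of the proteasome genes was not tested, and in whole lung fewer cells of a type and less RNA per cell cannot be told apart.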

How the data were processed

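Total RNA of 8 lungs was amplified, biotin-labelled and hybridised to Clariom D mouse arrays, 1 array per animal. The authors used RMA (background correction, quantile normalisation and probe summary) at its default parameters, and the values they deposited are log2 signals. The variant of RMA and the genome build are not given in the sources used here. Quantile normalisation hides a shift of most transcripts in one direction. The log2 values ran from 2.09 to 19.7. Scanner files and detection calls were not analysed here. Precision is limited by the number of animals.

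Samples were grouped by their titles, which also number the replicates and call them biological. The deposited values of all 65956 transcript clusters entered a linear model in limma 3.58.1 (R 4.3.3) with moderated two-sided tests, no covariate and Benjamini-Hochberg adjustment over all clusters, and the proteasome genes were read out of that fit. Symbols came from the platform annotation, in which 30638 clusters have 1 symbol, 2176 several and 33142 none. Left out were 2 pseudogene clusters and 4 clusters with several symbols that include a Psm gene. The fit was also run on simulated data with independent noise in each cluster and planted changes of 1.5-fold or more. Smaller changes, and shifts shared by many genes of an array, were not simulated. The members, the lists of roles, partners and markers, and the tests were chosen with earlier results of these data known. Values per array are given for the immunoproteasome subunits and those they replace, for the 3 genes with the smallest p of each role and pathway list (all of them in lists of 4 or fewer), and for Psma8, Psmb11 and Atf4. Tap1 lies outside this rule and was chosen after its values were seen. Promoters and gene order were taken from RefSeq on GRCm38.p6. Alternative settings changed the normalisation (arrays centred on their medians, or cyclic loess), the clusters fitted (those above the median signal, or 1 per gene), the variance model (trend and robust eBayes, array weights, or the methods' t-test with 2 samples), the samples and terms (males alone, sex, the replicate number as a block, omission of single arrays) and the thresholds. Python 3.11.15, pandas 2.3.3 and matplotlib 3.10.9 were used for summaries and figures.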

Additional observations from a re-analysis of the deposited data

Results flagged for a closer look

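Of 74 groups of 4 lungs checked for a single distant value (37 named genes in 2 genotypes), 4 had one by Dixon's criterion, where chance alone flags about 1 group in 20. Psma2 read 9.52 in KO replicate 4, against 9.90 to 9.98 in the other KO lungs. Psmc3 read 8.52 in KO replicate 4, against 8.74 to 8.76 in the others, and Psmd6 read 8.90 there, against 9.13 to 9.15. Psmd5 read 10.24 in KO replicate 1, against 10.40 to 10.42 in the other KO lungs. In 3 of the 4 the distant lung was KO replicate 4, the lowest KO lung in 30 of the 46 genes.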

How the results depend on the processing

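None of the 46 genes was called under any alternative, including an adjusted p of at most 0.05 at any fold and an adjusted p of at most 0.1 with the 1.5-fold minimum, and their median change lay between -0.14 and -0.06. The number of genes lower at an unadjusted p under 0.05 was 7 in the main fit, 4 under cyclic loess and 2 in males only. It was 3 to 12 when each lung was left out. Shares over all clusters were computed only for the main fit and for the fit without WT replicate 1. Atf4 kept its direction, with a change of -1.14 in males only (adjusted p = 0.301) and of -1.29 with sex as a covariate (0.0717), with the methods' t-test (0.236) and with the replicate number as a block (0.155); when each lung was left out it was -1.51 to -1.16 (0.00902 to 0.159). Psmb8 was 0.02 under cyclic loess, 0.19 in males only, 0.01 after median-centring and -0.20 to 0.09 when each lung was left out. Psmb9 was 0.03, 0.23, 0.02 and -0.16 to 0.13 under the same alternatives. Psmb10 was 0.00 under cyclic loess, 0.13 in males only and -0.18 to 0.09 when each lung was left out. Psmb11 was -0.01 in males only and -0.01 to 0.13 when each lung was left out, where Psme4 was 0.00 to 0.07. The other named proteasome genes kept their sign in every alternative. The cause of these differences was not tested.

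The replicate number as a block gave 0 of the 46 genes called, 5 lower and 3 higher at an unadjusted p under 0.05, and a median change of -0.09, while over all clusters the calls went to 0. Deviations of lungs with the same number correlated at -0.038, 0.061, 0.027 and -0.187, and those of lungs with different numbers at -0.185 to 0.152. The labels do not say that lungs of the same number were paired. Whether they shared a litter or a batch was not tested. Calls over all clusters numbered 182 in the main fit, 0 with the methods' t-test, 4 in males only, 126 with sex as a covariate and 8 to 266 when each lung was left out. The mean of several clusters per gene could not be formed, since every gene had 1 cluster. With groups of 4 lungs, an interval given above that holds 0 does not exclude a change of either sign within its limits.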
